A study of Mus musculus with 6 samples.

Results

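The 8 genes Ighm, Ighd, Igkc, Iglc1, Iglc2, Iglc3, Mzb1 and Txndc5 were followed through leukocytes sorted from inflamed mouse joints. They were chosen by symbol from the 20394 genes of the deposited table, and all 8 were found. CD45+ cells (leukocytes), called synovial in the paper, were sorted from digested joints of male C57BL/6 mice, bought at 8 weeks of age, with antigen-induced arthritis. They were sequenced cell by cell at the 3′ ends of their transcripts. Whether bone marrow cells were among the sorted cells was not tested. Every mouse had been immunized under the skin with 10 μg of methylated bovine serum albumin (mBSA) in Freund's complete adjuvant and had received 100 μg of mBSA into the knee on day 21. The 6 samples were taken 3 days later, 2 after injection of the vehicle PBS into the peritoneum and 4 after injection of the immunopeptide PEPITEM at 300 μg. In the table the cells carry library numbers from 1 to 6, which no source used here links to a mouse or a treatment, so the vehicle and PEPITEM were not compared.

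An antibody is built from a heavy and a light chain, and the constant part of each chain is encoded by a small number of genes. Ighm encodes the constant part of the μ heavy chain of IgM and Ighd that of the δ heavy chain of IgD. Both are read from one long transcript of the same rearranged locus, and the δ form is known to become abundant only in mature B cells. Igkc encodes the constant part of the κ light chain, and Iglc1, Iglc2 and Iglc3 encode those of the λ light chains, which are joined to a small set of variable genes. In the bone marrow, pro-B cells rearrange the heavy chain, cycling pre-B cells carry the heavy chain with a surrogate light chain, and small resting pre-B cells rearrange the light chains. Antibody-secreting cells make these chains in bulk and enlarge the endoplasmic reticulum (ER) to fold them. Mzb1 is an ER cochaperone of B cells and plasma cells that helps assemble IgM. Txndc5 is a protein disulfide isomerase of the ER that is not restricted to B cells.

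On the mouse genome build GRCm38 (mm10), with GENCODE release M21, Ighm lies on chromosome 12 from 113418558 to 113422730 and Ighd from 113406604 to 113416324 beside it, both on the minus strand. Igkc lies on chromosome 6 from 70726435 to 70726966 on the plus strand. Iglc1, at 19061618 to 19062071, Iglc3, at 19065230 to 19065681, and Iglc2, at 19198396 to 19200351, share chromosome 16 and its minus strand. All of these are annotated as constant immunoglobulin genes, whereas Txndc5 on chromosome 13, from 38500079 to 38528824, is an ordinary protein-coding gene. The λ genes are close copies, so how well their transcripts can be told apart bears on every λ value. A stretch of 120 coding bases is shown for each, read from the GENCODE transcripts on the minus strand (chr16:19061757-19061876 for Iglc1, chr16:19198541-19198660 for Iglc2 and chr16:19065370-19065489 for Iglc3), with capitals at the 39 positions where the 3 genes are not all alike:
Iglc1: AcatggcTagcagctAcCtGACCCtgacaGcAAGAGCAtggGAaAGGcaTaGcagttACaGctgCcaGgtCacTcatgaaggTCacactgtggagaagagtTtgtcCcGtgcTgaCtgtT
Iglc2: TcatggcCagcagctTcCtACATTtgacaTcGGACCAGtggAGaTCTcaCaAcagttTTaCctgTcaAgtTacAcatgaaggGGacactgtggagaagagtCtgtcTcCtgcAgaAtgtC
Iglc3: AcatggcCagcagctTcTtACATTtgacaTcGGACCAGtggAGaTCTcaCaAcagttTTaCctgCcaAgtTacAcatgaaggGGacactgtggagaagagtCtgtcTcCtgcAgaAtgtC
Iglc1 alone carried a different base at 36 of these positions, Iglc2 at 2 and Iglc3 at 1. The stretch was chosen as the one of its length with the most positions that differ. Over the 314 coding bases aligned, Iglc2 and Iglc3 were 96.5% identical, while Iglc1 matched Iglc2 at 73.2% and Iglc3 at 73.9%. No run of 90 bases of one λ transcript occurred whole in another. Iglc1 is therefore well separated by sequence and Iglc2 and Iglc3 much less so, and whether reads were exchanged between Iglc2 and Iglc3 was not tested.

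The table held 32953 cells, between 2919 and 9345 per library, with 47273569 to 123367661 unique molecular identifiers (UMIs, one per captured transcript) per library and a median of 9923 to 14001 UMIs per cell. Of all cells, 276 shared their barcode sequence with a cell of another library. B lineage cells numbered 5956 and made up between 11.3% and 36.1% of a library, with the highest share in library 2. Without the 8 genes and the other immunoglobulin genes among the genes used for clustering, 5423 of these cells fell into 5 stages. They are called here by the markers they carried: 521 pro-B-like, 698 cycling pre-B-like, 1932 small pre-B-like, 2229 mature B-like and 43 antibody-secreting-like cells. Their median UMIs per cell were 8081, 13204.5, 4920, 5575 and 30451. Among the markers that named them, Vpreb1 and Igll1, which form the surrogate light chain, were found in 99.4% and 99.0% of the pro-B-like cells, and all 14 markers of antibody-secreting cells were detected in at least 25% of the 43 cells. The remaining 533 B lineage cells stayed unnamed, since no stage's markers reached the mean fold set for a name in any of their 4 subclusters (0.80 to 1.21). Genes of neutrophils, macrophages or muscle led 3 of these, and Rgs13 and Fcrl5 led the other. Levels are given as UMIs of a gene per 1000000 UMIs of a population (CPM), and a range over libraries is the spread between animals or preparations of unknown treatment. Intervals are 95% intervals for counting error alone.

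Ighm was counted in nearly every B lineage cell before secretion, and Igkc was already counted in some pro-B-like cells. Whether these transcripts came from rearranged genes was not tested. Ighm was found in 97.7% of the pro-B-like, 99.7% of the cycling pre-B-like, 99.9% of the small pre-B-like and 99.3% of the mature B-like cells. Its level was 1263 CPM in pro-B-like, 2315 in cycling pre-B-like, 4562 in small pre-B-like and 3417 in mature B-like cells. In pro-B-like cells the libraries 1 to 6 held 1857, 1546, 962, 797, 1197 and 1067 CPM. In small pre-B-like cells they held 5048, 4747, 4301, 4028, 4216 and 4449 CPM, so that every library stood above every pro-B-like value. The step from cycling to small pre-B-like cells was 1.97-fold (1.94 to 2.00) and had the same direction in 6 of 6 libraries. Mature B-like cells then held 0.749 times the small pre-B-like level (0.739 to 0.759), lower in 6 of 6 libraries but not alike in all subclusters of the stage.

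Ighd was higher in the mature B-like stage than in any other, though not in all of its subclusters alike. Ighd stood at 35.7 CPM in pro-B-like, 56.6 in cycling pre-B-like and 109 in small pre-B-like cells, and at 378 CPM in mature B-like cells. The libraries 1 to 6 held 96.5, 112, 92.2, 101.03, 107 and 122 CPM in small pre-B-like cells, against 358, 376, 394, 352.5, 369 and 410 CPM in mature B-like cells. The sets did not overlap, and the ratio was 3.47 (3.25 to 3.71) over all cells and 3.35 to 4.28 within libraries. Ighd UMIs were found in 37.5% of small pre-B-like and 69.0% of mature B-like cells, and in 19.3% and 43.6% after every cell had been thinned to 2000 UMIs. In antibody-secreting-like cells the gene was all but missing, with 2 UMIs in 43 cells. The pooled level of Ighm was at its highest there, but above mature B-like cells in only 3 of 6 libraries.

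The mature stage was not uniform in IgD. Of its 4 subclusters, those with Ms4a1, the gene of the B cell antigen CD20, among their 10 leading genes held 1385 cells, and those led by genes such as Cd86, H2-Aa, Cr2 and Fcer2a held 844. H2-Aa encodes a class II antigen-presenting chain, Cr2 a complement receptor and Fcer2a the low-affinity IgE receptor CD23. The Ms4a1-led cells had 4390 CPM of Ighm and 210 CPM of Ighd, whereas the other cells had 1691 and 675 CPM. Ighd made up 4.57% of the UMIs of both heavy chain genes in the former (libraries 4.14% to 5.44%) and 28.5% in the latter (26.1% to 31.7%), and the libraries were far apart. In small pre-B-like cells this share was 2.33%, so the name mature B-like also covers 1385 cells low in Ighd. Ighd UMIs were found in 55.5% of the Ms4a1-led and 91.0% of the other mature B-like cells at similar median depths of 5726 and 5362.5 UMIs. The ratio of Ighd to small pre-B-like cells was accordingly 1.93 for the Ms4a1-led cells and 6.21 for the others. For Ighm the libraries of the Ms4a1-led cells, at 3729 to 4618 CPM, overlapped those of small pre-B-like cells, at 4028 to 5048 CPM. Those of the other mature B-like cells, at 1595 to 1767 CPM, lay below them. The split was drawn after the subclusters had been seen, and Ms4a1 was not chosen for the heavy chains.

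**Figure D1:**
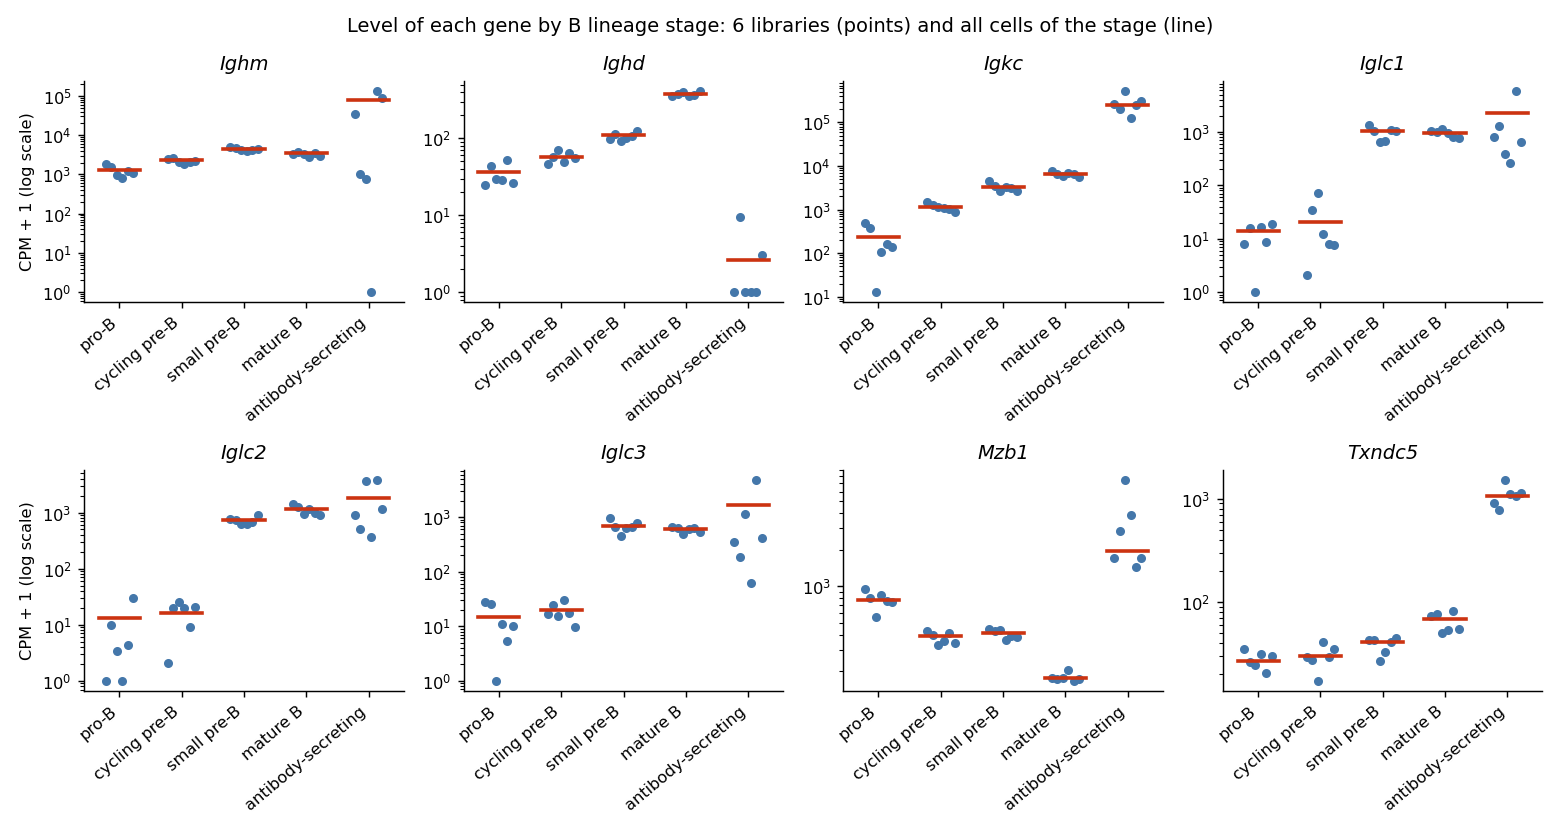
Levels of the 8 genes through the 5 B lineage stages, in CPM plus 1 on a log axis, with 1 point per library number and a line through the pooled values. The λ genes sit at 12.1 to 19.7 CPM up to cycling pre-B-like cells and at 599 CPM or more in small pre-B-like and mature B-like cells. Ighd peaks at 378 CPM in mature B-like cells, and Mzb1 is lowest there at 175 CPM.

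The κ light chain was higher at each successive stage. Igkc had 229 CPM in pro-B-like, 1136 in cycling pre-B-like, 3319 in small pre-B-like and 6482 in mature B-like cells. In pro-B-like cells the libraries 1 to 6 held 486, 382, 11.8, 107, 158 and 136 CPM, a spread wider than that of any later stage before secretion. Small pre-B-like cells held 4486, 3439, 2738, 3321, 3047 and 2695 CPM, and mature B-like cells 7628, 6506, 5940, 6880, 6417 and 5460 CPM. No library of one of these stages reached into the next. Within the mature B-like stage Igkc stood at 7300 CPM in the Ms4a1-led cells (libraries 6158 to 8589) and at 5031 CPM in the others. The libraries of these others, at 4374 to 6105 CPM, overlapped those of small pre-B-like cells. The level in small pre-B-like cells was 14.5 times that in pro-B-like cells (13.7 to 15.4), with 9.01 to 232 times within libraries, the latter in library 3, whose 30 pro-B-like cells had the lowest level. Without library 2 the ratio was 21.2, and with the stages set by marker scores per cell it was 7.80. Igkc UMIs were present in 27.4% of pro-B-like cells, 92.0% of cycling pre-B-like, 86.4% of small pre-B-like and 94.98% of mature B-like cells. The 2 pro-B-like cells with most Igkc UMIs, 102 and 100, held 16.4% of the UMIs of that stage. Of the 2 pro-B-like subclusters, the 131 cells led by Dntt and Auts2 held 97.4 CPM of Igkc. The 390 cells led by Arpp21 and Vpreb1 held 338 CPM. Their libraries overlapped, at 0 to 233 and 37.3 to 733 CPM, and their median depths were 17936 and 6909 UMIs.

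The λ light chains appeared later and with a larger step. Iglc1 stood at 12.8 and 19.7 CPM in pro-B-like and cycling pre-B-like cells and at 1021 CPM in small pre-B-like cells. Iglc2 stood at 12.1, 15.3 and 746 CPM and Iglc3 at 13.8, 18.7 and 694 CPM in the same order. From cycling to small pre-B-like cells these were differences of 51.7-fold (45.1 to 59.6), 48.7-fold (41.7 to 57.3) and 37.1-fold (32.3 to 43.0), each in 6 of 6 libraries. Within libraries they ranged from 9.47 to 1243 for Iglc1, 25.6 to 732 for Iglc2 and 21.3 to 91.8 for Iglc3. In cycling pre-B-like cells the 2 highest cells held 40% of the Iglc1, 23.9% of the Iglc2 and 19.1% of the Iglc3 UMIs. Igkc differed by 2.92-fold (2.86 to 2.98) over the same step, with 2.40 to 3.13 within libraries. Mature B-like cells had 969 CPM of Iglc1, 1170 of Iglc2 and 599 of Iglc3. Between small pre-B-like and mature B-like cells the libraries overlapped for all 3 genes. The Ms4a1-led and the other mature B-like cells differed, with 1379 and 241 CPM of Iglc1, 1436 and 698 of Iglc2 and 733 and 359 of Iglc3. For Iglc1 the libraries of these other cells (169 to 279 CPM) lay below those of small pre-B-like cells (658 to 1327). The same held for Iglc3 (275 to 428 against 448 to 952 CPM), while for Iglc2 they overlapped.

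As a share of the light chain UMIs of the 4 constant genes, λ made up 14.5% in pro-B-like, 4.52% in cycling pre-B-like, 42.6% in small pre-B-like and 29.7% in mature B-like cells. The share in mature B-like cells had a counting interval of 29.4% to 29.9% and ranged from 27.5% to 30.9% over libraries, and in small pre-B-like cells it ranged from 36.6% to 50.6%, so the libraries of these stages did not overlap. The pro-B-like share rested on 1436 light chain UMIs. Within the small pre-B-like stage the 3 subclusters differed widely. The share was 8.68% in the 550 cells led by Prg3 and Nr6a1os. It was 45.2% in the 804 cells led by Gadd45g and Sox4, and 64.4% in the 578 cells led by Reln and Col25a1. Iglc1 stood at 66.8, 1260 and 1719 CPM in these subclusters. Igkc stood at 3794, 3744 and 2118 CPM in the same order, with libraries at 1818 to 2710 CPM in the last. In mature B-like cells the share was 32.7% in the Ms4a1-led cells and 20.5% in the others, with libraries at 28.5% to 34.4% and 18.2% to 23.7%.

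A B cell normally keeps a single light chain, but the λ share per cell did not fall into clean classes in mature B-like cells. Among the 2144 mature B-like cells with at least 10 light chain UMIs, 6.44% had more than 90% λ, 25.05% had less than 10%, and 68.5% (66.5% to 70.4%) lay in between. Of 1576 small pre-B-like cells, 18.5% were above 90%, 39.6% below 10% and 41.9% in between. Of 459 cycling pre-B-like cells none was above 90% and 93.7% were below 10%. Among the 43 antibody-secreting-like cells, 1 was above 90%, 3 lay between and 39 were below 10%. How much of the λ in these cells was free RNA of the droplets was not tested.

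**Figure D2:**
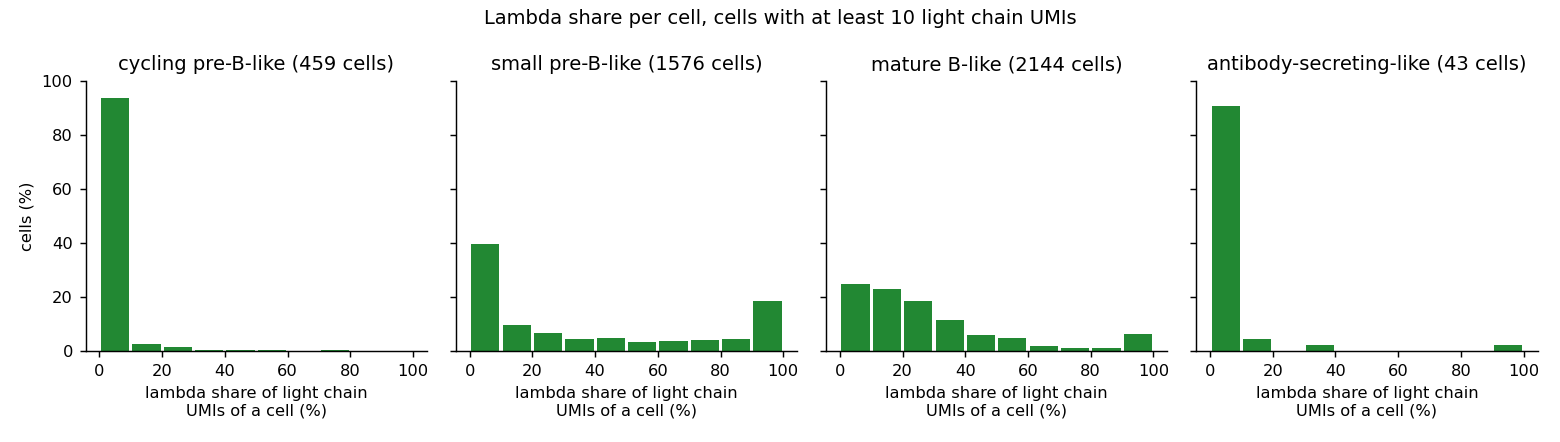
Distribution over cells of the λ share of light chain UMIs, in percent, in 4 B lineage stages, for cells with at least 10 light chain UMIs. Cycling pre-B-like and antibody-secreting-like cells pile up below 10%, small pre-B-like cells have a second group above 90% (18.5% of cells), and 68.5% of mature B-like cells lie between 10% and 90%.

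In most cells with more than 90% λ, 1 of the 3 λ genes held over 50% of the λ UMIs. Of 291 such small pre-B-like cells, 122 were led in this way by Iglc1, 68 by Iglc2 and 49 by Iglc3. Of 138 mature B-like cells the numbers were 62, 49 and 15. Among the cells so chosen, the leading gene held a median of 76.1%, 66.5% and 67.6% of the λ UMIs in small pre-B-like cells and of 83.1%, 75.4% and 75.0% in mature B-like cells, so the other λ genes were also counted in them. The variable genes were counted in the same cells as a separate readout. Mature B-like cells led by Iglc1 carried 32 UMIs of Iglv1, 5 of Iglv2 and 13 of Iglv3, whereas those led by Iglc2 carried 2, 9 and 10. Iglv1 thus held 64.0% of the variable λ UMIs beside Iglc1 and 9.52% beside Iglc2. In the mouse λ locus Iglv1 lies before Iglc3 and Iglc1, whereas Iglv2 and Iglv3 lie before Iglc2. Small pre-B-like cells led by Iglc2 were mixed, with 14 UMIs of Iglv1, 9 of Iglv2 and 9 of Iglv3.

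The 43 antibody-secreting-like cells devoted 37.1% of their UMIs to immunoglobulin genes, with a median cell at 41.3% and a range from 0.30% to 64.3%. Igkc reached 257347 CPM, with 268844, 204095, 522799, 125497, 245779 and 302287 CPM in libraries 1 to 6, which held 4, 3, 1, 2, 17 and 16 of the cells. At least 1000 Igkc UMIs were counted in 40 of the 43 cells and at least 1000 λ UMIs in 2. The pooled λ share was 2.17% (libraries 0.55% to 5.57%), below the pooled share of every other stage. Its libraries overlapped those of cycling pre-B-like cells (1.21% to 8.69%). The 2 highest cells held 56.5% of the Iglc1 and 74.4% of the Iglc3 UMIs of the stage. Ighm had 77330 CPM, but with 33872, 1006, 762, 0, 132627 and 85950 CPM in libraries 1 to 6 it was spread unevenly.

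The heavy chain class of the cells also differed between libraries. Most heavy chain UMIs came from Ighm in 29 cells, from Igha, the constant gene of IgA, in 9 and from Ighg2b, of IgG2b, in 3, while 2 cells had fewer than 10 heavy chain UMIs of the genes read. The Ighm cells were 16 of 17 in library 5, 12 of 16 in library 6 and 1 of 4 in library 1. The 3 cells of library 2 and both cells of library 4 were Igha cells. Ighg1 and Ighe were not analysed here. Jchain, the joining chain of secreted IgM and IgA, was found in 40 of the 43 cells at 27536 CPM. Neutrophil genes were also present, with 8 of 11 markers in at least 25% of these cells and a summed level of 31820 CPM (libraries 0 to 68591) against 100 CPM in mature B-like cells; 4 of 9 B lineage markers passed the same bar. The part of other cells in these profiles was not tested.

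**Figure D3:**
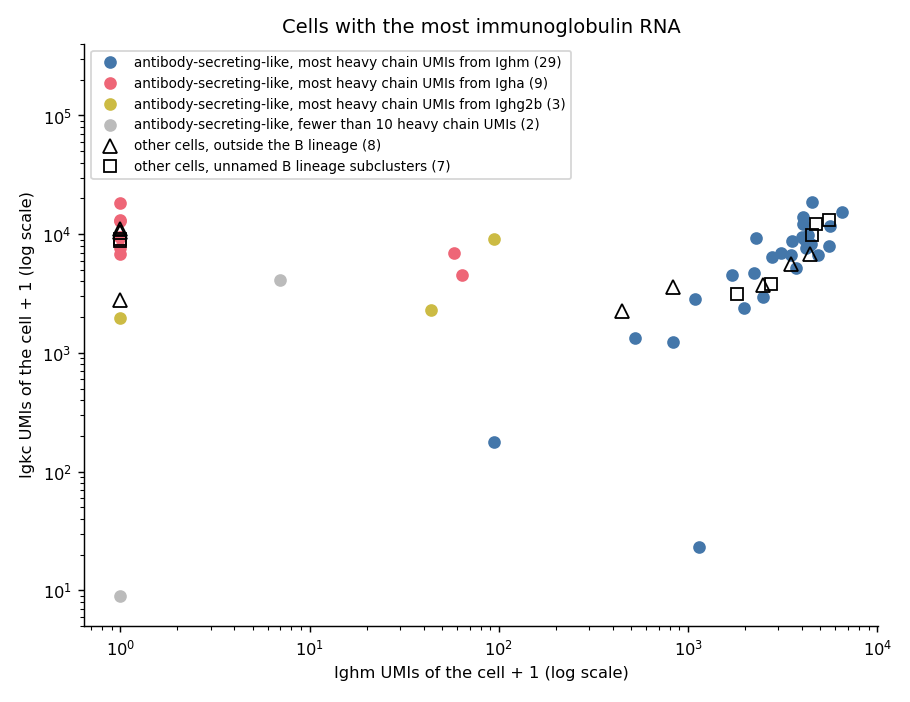
UMIs of Ighm and Igkc per cell, with log axes, for the 43 antibody-secreting-like cells by the heavy chain gene with most UMIs (29 Ighm, 9 Igha, 3 Ighg2b, 2 with fewer than 10) and for 15 cells of other clusters with at least 1000 light chain UMIs. Igha and Ighg2b cells lie low on Ighm, and the 3 Ighg2b cells hold 1978, 2287 and 9146 Igkc UMIs.

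Cells with a secreting profile were also found outside that cluster. At least 1000 light chain UMIs were counted in 15 further cells, of which 7 lay in unnamed B lineage subclusters and 8 outside the B lineage (3 neutrophil-like, 3 dendritic-like, 1 inflammatory macrophage-like and 1 cycling-like). Between 10 and 14 of the 14 antibody-secreting markers were detected in each of them, and immunoglobulin genes held 11.9% to 63.8% of their UMIs. They carried 8 to 264 UMIs of Mzb1 and 89 to 2387 of Jchain. Of the 15 cells, 14 came from libraries 5 and 6, which also held 17 and 16 of the 43. The 8 cells outside the B lineage held 91.1% of all Igkc UMIs there, and without them Igkc fell from 1171 to 14.1 CPM in dendritic-like and from 125 to 3.13 CPM in neutrophil-like cells. With all 15 cells added to the 43, Mzb1 was 9.73 times its level in mature B-like cells. The authors had removed doublets, and no doublet caller was run here.

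Mzb1 was high at both ends of the lineage. It had 763 CPM in pro-B-like, 387 in cycling pre-B-like, 412 in small pre-B-like, 175 in mature B-like and 1963 CPM in antibody-secreting-like cells. In pro-B-like cells the libraries 1 to 6 held 939, 794, 561, 853, 751 and 736 CPM, and in mature B-like cells 175, 171, 174, 205.5, 166 and 170 CPM. These did not overlap, and mature B-like cells had 0.229 times the pro-B-like level (0.217 to 0.241). The 2 pro-B-like subclusters differed. Mzb1 stood at 979 CPM (libraries 921 to 1122) in the 390 cells led by Arpp21 and Vpreb1. In the 131 cells led by Dntt and Auts2 it stood at 505 CPM (379 to 672). The latter libraries overlapped those of cycling and small pre-B-like cells (327 to 424 and 359 to 448 CPM). In antibody-secreting-like cells the libraries held 1714, 2816, 7494, 3839, 1424 and 1696 CPM, all above the other stages. The level there was 11.2 times that of mature B-like cells (10.6 to 11.9; libraries 8.60 to 43.2, the last from the single cell of library 3). With stages set by marker scores per cell the ratio was 4.52, and at Leiden resolution 0.5 of the clustering no antibody-secreting-like cluster appeared. Since immunoglobulin UMIs fill the totals of secreting cells, the level was also taken per 1000000 other UMIs, where it was 3123 against 177 CPM, a ratio of 17.6. Mzb1 UMIs were found in 97.3% of pro-B-like and 51.4% of mature B-like cells, and in 75.6% and 26.4% at 2000 UMIs per cell.

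Txndc5 shared the peak in antibody-secreting-like cells but not the restriction to B cells. It had 26.2, 29.1, 40.2 and 67.2 CPM from pro-B-like to mature B-like cells and 1053 CPM in antibody-secreting-like cells. The libraries 1 to 6 held 71.8, 76.4, 49.8, 53.0, 81.0 and 54.3 CPM in mature B-like cells and 902, 779, 1524, 1115, 1066 and 1128 CPM in antibody-secreting-like cells. The ratio was 15.7 (14.4 to 17.1), with 10.2 to 30.6 within libraries. The B lineage held 22.1% of all Txndc5 UMIs, whereas it held 83.0% of those of Ighm and at least 90.03% of those of each of the other 6 genes. After the antibody-secreting-like cells came plasmacytoid dendritic-like cells at 99.8, fibroblast-like cells at 86.4, cycling-like cells at 75.3, mature B-like cells at 67.2 and monocyte-like cells at 58.4 CPM, and the libraries of each of these overlapped the next. Neutrophil-like cells were lowest at 1.50 CPM, with UMIs in 1.04% of cells.

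The rest of the secretory machinery was read from a list of 28 ER folding and secretion genes. Of these, 26 were above mature B-like cells in antibody-secreting-like cells and 26 had their highest stage there, with a median ratio of 4.32. Since 6 of them were also stage markers, the other 22 were counted alone: 20 were above, with a median ratio of 4.02, and 15 were higher in 6 of 6 libraries. Of the 7851 genes with at least 20 CPM in a stage, 1527 (19.4%) were above, 163 (2.08%) were higher in 6 of 6 libraries and the median ratio was 0.491. Creld2 stood at 297 against 15.2 CPM, Sdf2l1 at 293 against 22.8, Ssr4, a subunit of the translocon-associated complex, at 1233 against 109, and Hspa5, the ER chaperone BiP, at 1128 against 315 CPM. The exceptions were Canx, at 151 against 175 CPM, and Ero1lb, an ER oxidase, at 109 against 392 CPM. The signaling partners of the B cell receptor went the other way, with Cd79a at 2314 CPM in mature B-like and 366 CPM in antibody-secreting-like cells and Cd79b at 1103 and 236 CPM.

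Outside the B lineage the heavy and light chain genes parted. Among 26997 cells Ighm UMIs were found in 43.2% (42.6% to 43.8%) and Igkc UMIs in 2.10% (1.93% to 2.27%). The table also stores entries of 0, which were read as values that the removal of ambient RNA had lowered to 0. For Igkc 88.5% (87.5% to 89.3%) of the stored entries outside the B lineage were 0, with 79.3% to 91.5% over libraries, and for Ighm 13.3%. In mature B-like cells the shares were 0.14% and 0.045%. Of the other light chain genes, 56.4% of the Iglc1, 57.5% of the Iglc2 and 20.4% of the Iglc3 entries were 0 outside the B lineage, and of the helpers 21.9% for Mzb1 and 1.99% for Txndc5. The Iglc3 and Mzb1 shares include plasmacytoid dendritic-like cells, where a median library had UMIs of these genes in 53.3% and 42.3% of cells. There 0% to 5.56% of the Iglc3 and 0% to 6.67% of the Mzb1 entries were 0 over libraries. Shares without that class were not taken.

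**Figure D4:**
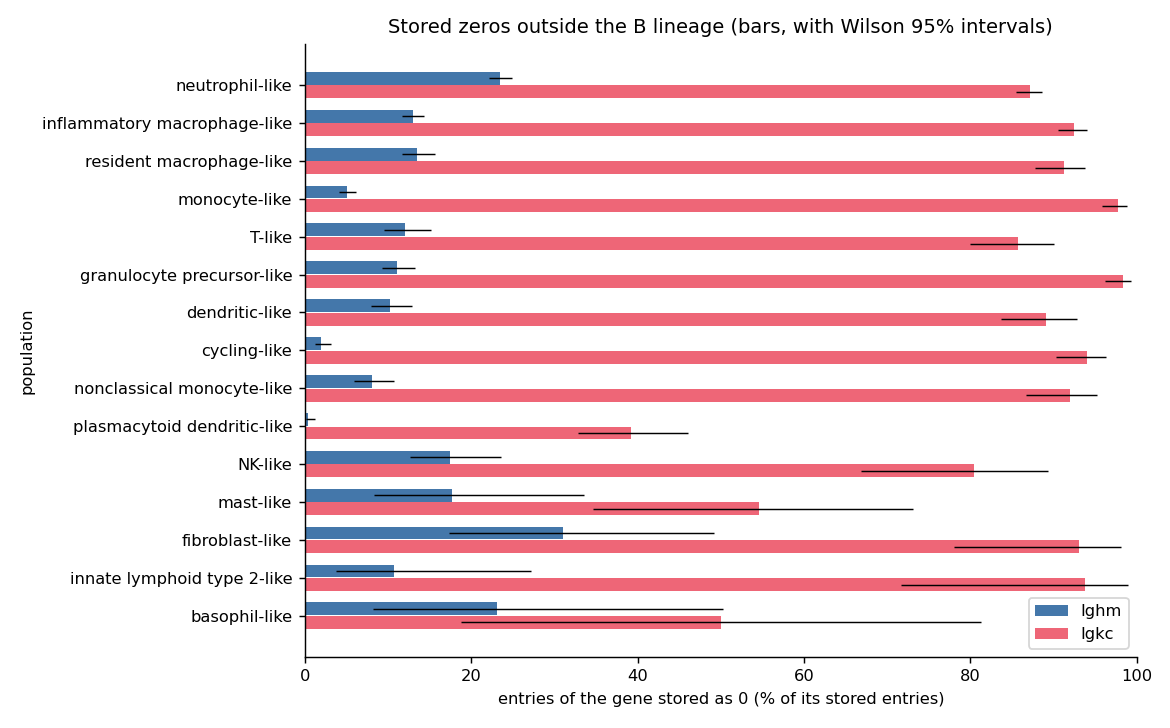
Share of stored entries that are 0, in percent, for Ighm and Igkc in the 15 named classes outside the B lineage. Igkc lies at 80.4% or more in every class except the plasmacytoid dendritic-like (39.2%), mast (54.5%) and basophil (50.0%) classes, and Ighm lies at 31.0% or less in all of them.

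Ighm levels outside the B lineage varied by class. Plasmacytoid dendritic-like cells had 633 CPM (libraries 448 to 709.6), cycling-like cells 299 (154 to 504), monocyte-like cells 165 (117 to 188), neutrophil-like cells 99.3 (30.0 to 160) and fibroblast-like cells 18.9 CPM (5.28 to 125). In neutrophil-like cells 3 cells with at least 1000 light chain UMIs held 63.6% of the Ighm UMIs. Without them the level there was 36.2 CPM. From the plasmacytoid dendritic-like cells down, the libraries of each class overlapped those of the next class in order. The overlap of plasmacytoid dendritic-like with cycling-like cells came only from library 6, where 1 cycling-like cell held 2496 of 4073 Ighm UMIs. The other libraries of cycling-like cells stood at 154 to 216 CPM. Natural killer-like and T-like cells stood at 123 and 97.7 CPM, and their libraries overlapped those of monocyte-like cells. UMIs were found in 78.0% of monocyte-like cells (median depth 14863.5 UMIs) and in 12.4% of fibroblast-like cells (14930 UMIs), the class with the lowest level. After thinning to 2000 UMIs per cell the shares were 25.7% (24.0% to 27.5%) and 1.90% (0.65% to 5.43%). In cycling-like cells, at a median depth of 28078 UMIs, 94.0% were positive, and 33.4% after thinning.

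In monocyte-like cells the 9 B lineage markers summed to 22.3 CPM (libraries 11.7 to 29.5) with none in 25% of cells, against 12106 CPM in mature B-like cells. Cd79b, at 9.29 CPM in 11.9% of the monocyte-like cells, and Blnk, at 8.94 CPM in 7.78%, held most of this sum. In the monocyte-like cells Cd79a stood at 0.90 CPM, and Mzb1 at 0.055 CPM, from 2 UMIs in 2338 cells. Whether the Ighm UMIs of monocyte-like cells arose in those cells was not tested.

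Outside the B lineage, Ighm, Ighd, Iglc2, Iglc3, Mzb1 and Txndc5 had their highest pooled level in plasmacytoid dendritic-like cells, and Igkc and Iglc1 did not. Igkc stood there at 119 CPM, below dendritic-like (1171), cycling-like (165) and neutrophil-like cells (125 CPM). Those classes held cells with at least 1000 light chain UMIs, and neutrophil-like cells fell to 3.13 CPM without theirs. In library 6, 1 such cycling-like cell held 3742 of the 3748 Igkc UMIs of its class. How often genes at large are highest in plasmacytoid dendritic-like cells was not counted. For Iglc3 and Mzb1 the libraries stood apart from those of the next population in order, while for Ighm, Ighd, Iglc2 and Txndc5 they overlapped. For Ighm this overlap came only from library 6 of cycling-like cells. Single libraries of other classes reached 44.8 CPM of Ighd (basophil-like) and 63.3 CPM of Iglc2 (dendritic-like), above the highest plasmacytoid dendritic-like libraries at 19.6 and 33.5 CPM. These rested on few counts or cells. The former was 2 UMIs in the 9 basophil-like cells of library 3. The latter was 143 UMIs in library 6, with 2.63% of 114 dendritic-like cells positive. That library also held dendritic-like cells with at least 1000 light chain UMIs. The plasmacytoid dendritic-like class of 592 cells was named from Siglech and its further markers and produces interferon in the textbook account. Ighm UMIs were found in 98.6% of the cells and in 66.9% after thinning. Iglc3 stood at 200 CPM, with 169, 204, 192, 264, 252 and 157 CPM in libraries 1 to 6, and was found in 53.5% of cells (28.7% after thinning) against 1.86% of fibroblast-like cells. Iglc1 and Iglc2 stood at 7.48 and 23.6 CPM, with libraries at 0 to 15.9 and 6.79 to 33.5 CPM. In every library Iglc3 was therefore above both.

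Iglc3 made up 86.5% of the λ UMIs of the plasmacytoid dendritic-like cells, while it made up 21.9% in mature B-like and 28.2% in small pre-B-like cells. Of its stored entries 1.55% were 0. Mzb1 had 88.0 CPM there (69.3 to 108) and was found in 41.6% of cells, below every B lineage stage and above every other class without overlap between libraries. Ighd had 13.4 CPM and Txndc5 99.8 CPM. Of the 9 B lineage markers, Blnk, an adaptor of the B cell receptor, held most of the summed 1745 CPM with 1546 CPM. Ebf1 stood at 93.9 CPM in 5.24% of the cells, and Cd79b was found in 26.4% of the cells. Cd79a, Pax5 and Vpreb3 stood at 21.2, 15.4 and 18.0 CPM in under 5% of cells.

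**Figure D5:**
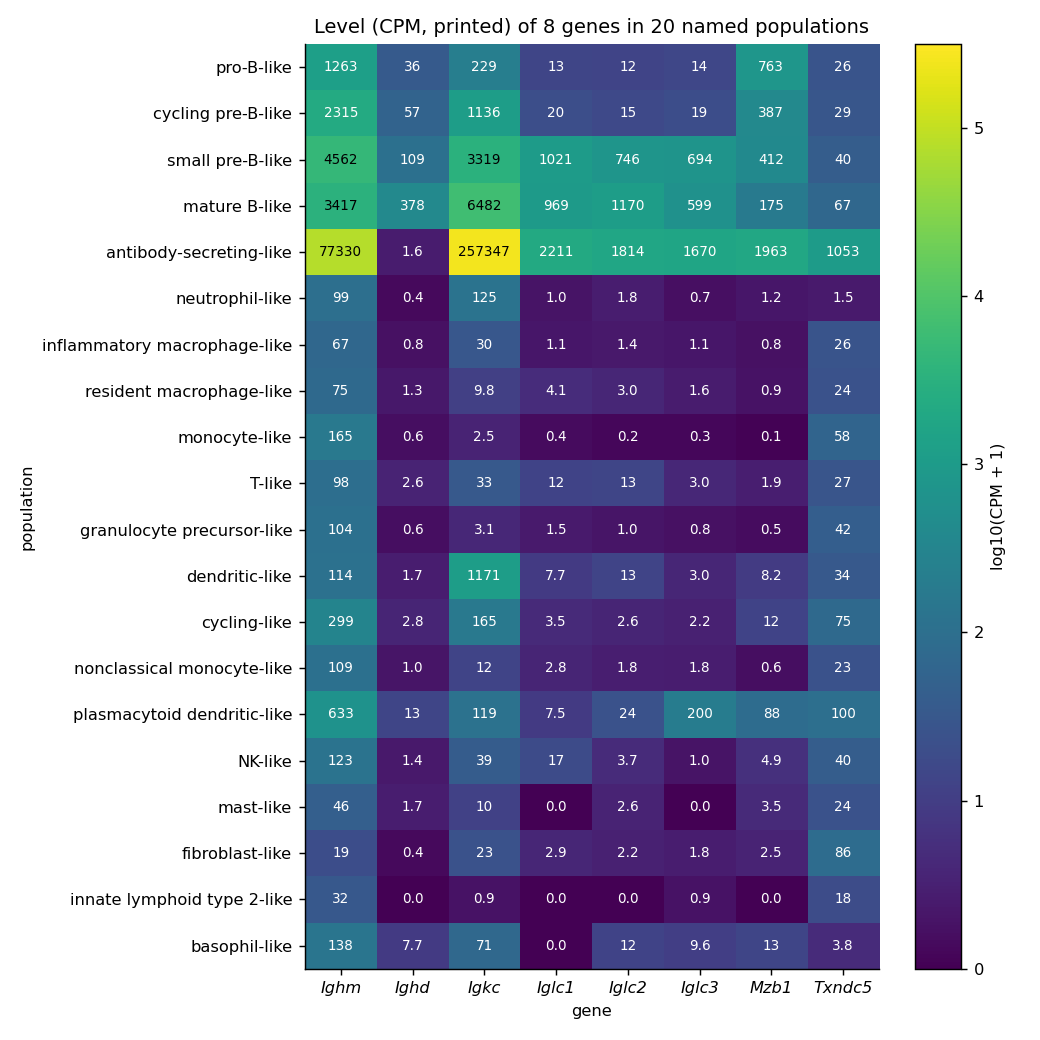
Pooled levels of the 8 genes, in CPM on a log color scale, in the 20 named populations. Ighm is present in every row, Igkc and the λ genes are highest in small pre-B-like, mature B-like and antibody-secreting-like cells (the 1171 CPM of Igkc in dendritic-like cells rest on 3 cells), plasmacytoid dendritic-like cells hold Iglc3 (200 CPM) and Mzb1 (88.0 CPM), and Txndc5 is spread over many rows.

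The genes whose levels ran most like each member over the 20 populations were taken from 10459 genes by Pearson's r of log2(CPM + 1), as a description. The populations share libraries and depth, and those of the B lineage are alike in many genes. For Ighm these were Eaf2 (r = 0.93), Gm43291 (0.92) and Endou (0.91), and for Ighd Agbl1 (0.97), Cd22 (0.96) and 4930426D05Rik (0.94). Igkc ran with Derl3 (0.87), an ER degradation factor, Gm43291 (0.87) and Eaf2 (0.86). For Iglc1 and Iglc2 the first gene was Gm43388 (0.92 and 0.94), and for Iglc3 it was Eaf2 (0.93) before Ly6d (0.91) and Cacna1e (0.90). Mzb1 ran with Endou (0.93), Pou2af1 (0.92), a B cell coactivator, and Cd79a (0.92). Txndc5 ran with Tmem214 (0.91) and the ER chaperones Hsp90b1 (0.91) and Pdia4 (0.89). Among the members themselves the closest pair was Iglc2 and Iglc3 (0.95) and the most distant Ighd and Txndc5 (0.094).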

How the data were processed

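CD45+ synovial cells of 6 samples were analysed from one table of UMI counts. Per the labels, reads were processed with Cell Ranger 7 against mm10, and the authors deposited whole UMI counts after removing ambient RNA and doublets and filtering cells on genes and mitochondrial share. The counts were not scaled for depth. No column was tied to a sample, and the barcode numbers 1 to 6 match no name in the labels, so cells could not be assigned to samples and the planned comparison of PBS and PEPITEM was not run.

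Each cell was brought to a total of 10000 before the logarithm of the value plus 1 was taken, and the 2000 most variable genes were kept, from which 50 genes (members and other immunoglobulin genes) were then left out. Values were standardized with a maximum of 10 and reduced to 30 principal components, and Leiden clustering of a graph of 15 neighbors (resolution 1.0, seed 0) gave 33 clusters. Clusters with at least 6 of 9 B lineage markers in 25% of their cells were clustered again into 16 subclusters. A subcluster took the stage whose markers had the highest mean log2 fold over the other B lineage cells, with 0.1 added per 10000. It needed 3 detected markers, a mean marker fold of at least 1.25, no more markers of another class than its own among its 10 leading genes, and for a precursor name Ms4a1 in at most 50% of cells. This naming rule was set after the data had been seen, and the members, markers and lists were chosen with earlier results of these data known. Genes named are the members, the genes of the lists and the 3 genes with the highest r to each member among genes of at least 20 CPM in a population. Leading genes of subclusters were named after their values had been seen.

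Levels are summed UMIs per 1000000 UMIs. Shares have Wilson intervals and levels and ratios exact Poisson or conditional binomial intervals, all for counting error only at 95%. Shares at equal depth used 2000 UMIs per cell, and the 579 shallower cells were left out. Since the treatment of each library is unknown, the lowest and highest library stand in place of an error and no test was made. The code was tested on simulated data. Python 3.11.15, scanpy 1.11.5, igraph 0.11.9, pandas 2.3.3, numpy 2.4.6, matplotlib 3.10.9 and scipy 1.17.1 were used. Positions and λ sequences are from GENCODE M21. The sequence and position of Mzb1 were not used here.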

Additional observations from a re-analysis of the deposited data

How the results depend on the processing

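Over 75 recomputed values for 5 results, 41 moved by less than their counting interval and 34 moved further. None of the ratios changed direction, and the shares have no direction to change. For the Igkc ratio of small pre-B-like to pro-B-like cells (14.5), the value was 11.0 with immunoglobulin genes kept for clustering, 15.4 and 10.7 at Leiden resolutions 0.5 and 2.0, 7.80 with stages set by marker scores, 19.5 as the median library, 13.5 after thinning to 2000 UMIs, and 12.8 to 21.2 without 1 library. For the Mzb1 ratio of antibody-secreting-like to mature B-like cells (11.2), it was 9.06 with immunoglobulin genes kept, 4.52 by marker scores, 13.2 as the median library and 10.3 to 12.5 without 1 library. At resolution 0.5 no antibody-secreting-like cluster appeared, so there was no value. For the Ighd ratio of mature B-like to small pre-B-like cells (3.47), it was 3.098 with immunoglobulin genes kept and 3.42 to 3.55 without 1 library. For the λ share of light chain UMIs in mature B-like cells (29.7%), it was 29.3% with immunoglobulin genes kept, 29.4% and 27.4% at the resolutions 0.5 and 2.0, 29.2% by marker scores, 29.1% as the median library, 28.0% as the mean per cell, 30.5% after thinning and 29.0% to 29.9% without 1 library. For the share of Igkc entries at 0 outside the B lineage (88.5%), it was 87.3% at resolution 0.5 and 87.1% to 88.9% without 1 library, and marker scores left it as it was, since they change only the stages.

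Further alternatives were chosen after seeing the data. The Igkc ratio was 17.2 without the 2 highest cells of each stage. The Mzb1 ratio was 17.6 without immunoglobulin UMIs in the totals and 9.73 with the 15 further high cells. In the Ms4a1-led and the other mature B-like cells, the Ighd ratio was 1.93 and 6.21 and the λ share 32.7% and 20.5%. The cause of these differences was not tested. The 43 antibody-secreting-like cells, 1 to 17 per library, limit every value of that stage. No paired analysis was possible because the library numbers are tied to no sample and no result comes from a test.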

Other observations

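Ighg2b, the constant gene of IgG2b, was also counted in early precursors. It stood at 41.1 CPM in pro-B-like cells (libraries 17.8 to 78.8), from 221 UMIs in 57 cells, which is 10.9% of the cells (8.54% to 13.9%) with at most 19 UMIs in a cell. The level was 4.13 CPM in cycling pre-B-like, 4.15 in small pre-B-like and 2.59 in mature B-like cells, and 1.52 CPM in plasmacytoid dendritic-like cells. Neutrophil-like cells had 6.13 CPM, of which 763 of 765 UMIs came from 1 cell. Igha, which is highest of the other heavy chains in antibody-secreting-like cells, stood at 0.74 CPM in pro-B-like cells.

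The unnamed B lineage subclusters also carried the members. In the 246 cells led by Camp, Ngp and Ltf, genes of neutrophil granules, Ighm stood at 2283 CPM and Igkc at 7664 CPM. In the 97 cells led by Fn1, Apoe and C1qb, genes of macrophages, the levels were 7751 and 17006 CPM. In the 139 cells led by the muscle genes Acta1 and Myl1 they were 4455 and 7347 CPM. In the 51 cells led by Rgs13 and Fcrl5 they were 2594 and 4882 CPM. The part of a second cell in these barcodes was not tested.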
